A study of Mus musculus with 12 samples.

Results

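Fully grown mouse oocytes wait in prophase of the first meiotic division until ovulation, and 9 genes of the pathway that controls this arrest were followed here. They are Gpr3, Gpr12, Gnas, Adcy3, Pde3a, Prkaca, Prkar1a and Prkar2a, which make, break or sense cyclic AMP (cAMP), and Gja4, which couples the oocyte to the follicle. The members were taken as the rows whose Ensembl identifiers carry these symbols in GENCODE mouse release M21, and all 9 were found among 55573 genes, of which 55480 have a symbol in that annotation. The series holds 12 libraries from single oocytes or measured portions of them, and it was made to ask how synthetic RNA standards behave as a scale when amplification or input is varied. All oocytes came from a healthy B6D2F1 female aged 12 weeks and were collected as germinal vesicle (GV) oocytes, with the nuclear envelope intact, in M2 medium with milrinone, an inhibitor of PDE3. Messenger RNA was captured on oligo(dT) beads, reverse transcribed, amplified and made into Nextera libraries, with the ERCC mixture of synthetic RNAs as the standard. In 6 libraries a whole oocyte was amplified for 10, 14 or 18 cycles, with 2 oocytes at each number. The other 6 came from a further 2 oocytes, whose lysates were diluted to portions of 1/2, 1/4 and 1/8 before the ERCC mixture was added, and every portion was amplified for 18 cycles. The labels do not say which portion came from which of these oocytes. Because every oocyte came from 1 animal, the tests below measure the spread between oocytes or portions of that animal only.

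Reads were available as counts per gene. The oocytes amplified for 10 cycles had 11597144 and 9189672 counts on genes, those amplified for 14 cycles had 12349577 and 13806199, and the whole oocytes at 18 cycles had 3017069 and 1706478. The 1/2 portions had 4024670 and 3598549 counts, the 1/4 portions 4027907 and 5049518, and the 1/8 portions 11404262 and 1702062. Library 2 of the whole 18-cycle oocytes and library 2 of the 1/8 portions were thus the shallowest, while library 1 of the 1/8 portions was as deep as the 10-cycle libraries. The counts come from amplified cDNA without molecular identifiers, so counting precision does not cover amplification.

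The arrest works through cAMP made inside the oocyte. GPR3, and in rodents the related GPR12, signal without an added ligand through the stimulatory G protein alpha subunit encoded by Gnas to adenylyl cyclase, and the cAMP made there keeps protein kinase A active, which holds CDK1 inactive. Cyclic GMP from the surrounding granulosa cells enters through connexin 37 channels, encoded by Gja4, and blocks PDE3A, the phosphodiesterase that would otherwise break cAMP down.

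The libraries were checked against markers of the oocyte and of its neighbours, in transcripts-per-million units (TPM, counts per base of annotated exon, rescaled to the same total in every library). All 11 oocyte markers were detected, led by Gdf9 at a mean of 5611 TPM. Their summed level was 37196 and 33792 TPM at 10 cycles, 37077 and 38826 at 14 cycles, and 11000.2 and 8946 in whole oocytes at 18 cycles. It was 13584 and 13176 TPM in the 1/2 portions, 20412 and 22132 in the 1/4 portions, and 29222 and 29006 in the 1/8 portions. The whole oocytes at 18 cycles were the lowest of the 12 libraries on this sum, and the 10-cycle and 14-cycle oocytes overlapped. Among the libraries of 18 cycles the sum was higher the smaller the portion. The oocyte markers thus also differed between groups of the same cycle number, and their part in the results below was not tested. The 14 granulosa and cumulus markers were led by Cyp19a1 at a mean of 17.4 TPM, and none of them was at 0 in every library. In whole oocytes they summed to 172 and 53.5 TPM at 10, 73.0 and 155 at 14, and 76.2 and 17.5 at 18 cycles. In the portions the same sum was 21.3 and 18.6 TPM at 1/2, 45.9 and 37.0 at 1/4, and 49.4 and 48.5 at 1/8. These sums overlapped between the cycle groups.

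Theca and stroma markers, 7 genes led by Star at a mean of 2.99 TPM, summed to 27.7 and 2.10 TPM at 10 cycles, 5.26 and 7.64 at 14 cycles, and 2.04 and 0.603 in whole oocytes at 18 cycles. In the 1/2, 1/4 and 1/8 portions they summed to 2.02 and 0.140, 0.183 and 1.23, and 0.543 and 3.83 TPM. Of 6 blood and immune markers, Hbb-bt, Hba-a1 and Hba-a2 were at 0 in all 12 libraries and Cd68 led at a mean of 3.58 TPM. The blood and immune sum was 4.18 and 3.09 TPM at 10 cycles, 3.86 and 4.48 at 14 cycles, 0 and 9.80 in whole oocytes at 18 cycles, 1.08 and 0 at 1/2, 1.197 and 10.1 at 1/4, and 5.91 and 0 at 1/8. The theca and stroma sum of whole oocytes at 18 cycles lay below those at 10 and 14 cycles, while the blood and immune sums overlapped.

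The 9 genes spanned a wide range of level. Mean TPM over the 12 libraries, which pools all 6 groups, was 3243 (SD 728, n = 12) for Gja4, which ranked the gene at place 18 of 55480. Gpr3 followed at 125 ± 32.6 (SD), Gnas at 103 ± 39.9, Pde3a at 90.6 ± 20.3 and Prkar1a at 76.0 ± 10.9 TPM. Prkar2a stood at 51.0 ± 9.65 and Prkaca at 33.2 ± 11.03, and the order ended with Gpr12 at 2.21 ± 1.63 and Adcy3 at 1.77 ± 0.924 TPM. A pair of steps in this order had ranges that did not overlap, from Gja4 to Gpr3, with means 25.96-fold apart, and from Prkaca to Gpr12, with means 15.0-fold apart. Within a library Prkar1a exceeded Prkar2a by 25.1 ± 15.9 TPM (SD, n = 12) and Prkar2a exceeded Prkaca by 17.8 ± 14.6 TPM, and each step held in 11 of 12 libraries and was larger than the SD of either gene, although the ranges overlapped. The neighbours Gpr3 and Gnas, Gnas and Pde3a, Pde3a and Prkar1a, and Gpr12 and Adcy3 had means no further apart than the larger of their SDs. Of these pairs, the gene named first was the higher in 10 of 12 libraries for Gpr3 and Gnas, in 7 for Gnas and Pde3a, in 9 for Pde3a and Prkar1a, and in 7 for Gpr12 and Adcy3. The 2 libraries with Gnas above Gpr3 were the whole oocytes at 18 cycles. Gnas depended on the length used, because its 24 annotated transcripts cover 11186 bases of exon in all. When the longest transcript of each gene was used in place of all its exons, mean TPM was 234 for Gnas and 109 for Gpr3, and Gnas moved above Gpr3. The longest transcript of Gnas ends at position 174302018 of chromosome 2, upstream of most exons of the gene, so the 234 TPM divides counts from all exons of Gnas by the length of a transcript that lacks most of them.

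**Figure D1:**
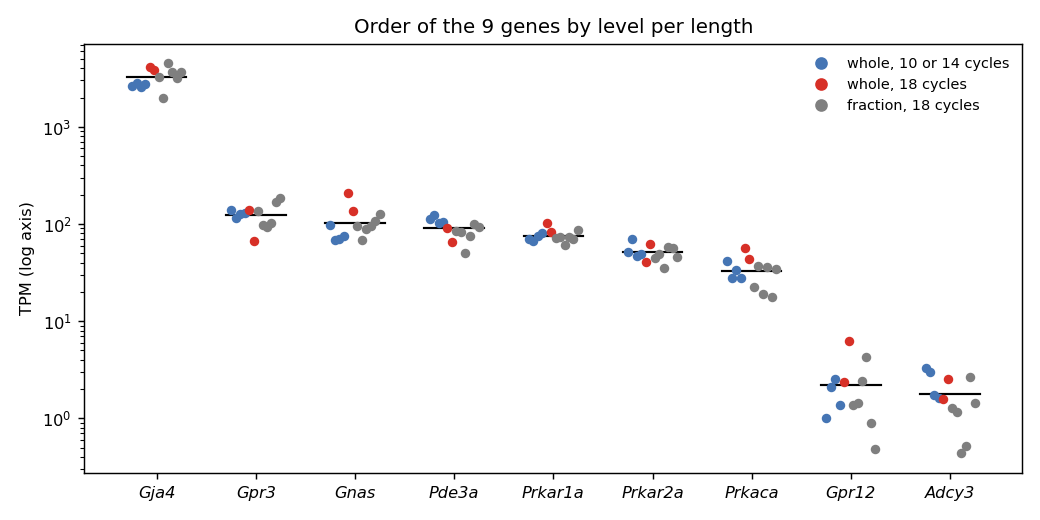
Level of the 9 arrest genes in the 12 libraries, in TPM on a log axis, with genes ordered by their mean. Each point is 1 library (whole oocytes at 10 or 14 cycles blue, whole oocytes at 18 cycles red, portions grey) and each line is the mean; Gja4 stands apart at 3243 TPM and Gpr12 and Adcy3 lie near 2 TPM.

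The constitutively active receptor GPR3 is encoded on the minus strand of chromosome 4 (GRCm38 chr4:133209340-133212536, ENSMUSG00000049649). In counts-per-million units (CPM, over all gene counts of a library), Gpr3 was at 118 and 98.4 at 10 cycles, 109 and 112 at 14 cycles, 126 and 60.9 in whole oocytes at 18 cycles, 93.4 and 94.8 in the 1/2 portions, 154 and 165 in the 1/4 portions, and 123 and 86.4 in the 1/8 portions. The 1/4 portions were the highest libraries, and the whole 18-cycle oocytes lay on both sides of the 10-cycle and 14-cycle values. Differences between groups were tested with edgeR's quasi-likelihood test on counts scaled by the median ratio over genes, and p-values were adjusted by Benjamini and Hochberg's method over all genes tested, with 0.01 as the threshold. For Gpr3 the log2 fold change of 18 against 10 cycles was 0.06 with a standard error of 0.26 (adjusted p = 0.881). Between the 1/4 portions and whole oocytes at 18 cycles it was 0.63 with a standard error of 0.32 (adjusted p = 0.335). Cd164l2, on the opposite strand, shares 204 of the exon bases of Gpr3 (7.46%), had 1505 to 10732 counts, and rose from 10 to 18 cycles by 2.79 on the log2 scale (adjusted p = 4.92e-05); whether its reads add to Gpr3 was not tested. CPM is a share of a library, so fewer copies of a gene and more copies of the others cannot be told apart on this scale.

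Gpr12, the related receptor (GRCm38 chr5:146582398-146585239, minus strand, ENSMUSG00000041468), was close to the detection limit. It had 2 to 25 counts per library, which gave 0.776 and 1.63 CPM at 10 cycles, 2.02 and 1.09 at 14 cycles, 1.99 and 5.27 in whole oocytes at 18 cycles, 2.24 and 3.61 in the 1/2 portions, 0.745 and 0.396 in the 1/4 portions, and 1.14 and 1.18 in the 1/8 portions. The whole oocytes at 18 cycles lay above those at 10 cycles and overlapped those at 14 cycles, and the 1/4 portions were the lowest of all. Its log2 fold change of 18 against 10 cycles was 1.81 with a standard error of 0.87 (adjusted p = 0.130), a difference that did not pass the threshold at these counts. The third gene of this receptor family, Gpr6, had no count in any library, and Gpr3 made up 91.4 to 99.7% of the family's TPM.

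Gnas encodes the G protein subunit that carries the receptor signal to adenylyl cyclase (GRCm38 chr2:174284320-174346744, plus strand, ENSMUSG00000027523). Its CPM was 333 and 235 at 10 cycles, 248 and 266 at 14 cycles, 777 and 503 in whole oocytes at 18 cycles, 367 and 357 in the 1/2 portions, 394 and 467 in the 1/4 portions, and 349 and 247 in the 1/8 portions. Both whole oocytes at 18 cycles were above the other 10 libraries. On the scale of the test, normalised counts of Gnas were 5615 and 4107 at 18, 2067 and 1541 at 10, and 1565 and 1643 at 14 cycles. The 18-cycle values lay above both other groups, which overlapped each other, and Gnas rose 2.697-fold from 10 to 18 cycles (log2 fold change 1.43, standard error 0.23, adjusted p = 0.000950) and 3.03-fold from 14 to 18 cycles (log2 fold change 1.601, standard error 0.23, adjusted p = 0.000517). These comparisons share the same whole oocytes at 18 cycles. The 18-against-10-cycle call was lost without oocyte 2 of the 10-cycle group (log2 fold change 1.23, adjusted p = 0.0195), while over all 12 alternative settings the log2 fold change lay between 1.19 and 3.77, the highest with ERCC size factors, and the adjusted p between 5.65e-09 and 0.0195.

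In portions compared with whole oocytes, both amplified for 18 cycles, Gnas was lower in every portion group without overlap in CPM. With median ratio scaling its log2 fold change was -0.85 with a standard error of 0.28 in the 1/2 portions (adjusted p = 0.159) and -0.70 in the 1/4 portions (adjusted p = 0.214), neither past the threshold. It fell in the 1/8 portions, with a log2 fold change of -1.29 and a standard error of 0.28 (adjusted p = 0.00191). That call was lost without oocyte 1 of the whole 18-cycle group (log2 fold change -1.04, adjusted p = 0.0264) or without library 2 of the 1/8 portions (log2 fold change -1.05, adjusted p = 0.0335). Against whole oocytes at 10 cycles as the reference the difference was 0.14 (adjusted p = 0.887), so its direction depended on the reference. Over its 14 alternatives the adjusted p ran from 3.03e-05 to 0.887.

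A second gene overlaps Gnas on the opposite strand. Gm20721, annotated as protein coding on the minus strand at chr2:174330319-174346712, has 13 exons that add up to 1484 bases, and 1469 of these bases (99.0%) lie in exons of Gnas. Its counts ranged from 397 to 3479 and were 0.857 to 0.945 of the Gnas counts in each of the 12 libraries. A chi-square test of this ratio between libraries, which takes the counts as independent, gave 3.19 on 11 degrees of freedom (p = 0.988). It cannot show that 2 genes moved alike, because the same reads may enter both counts. Gm20721 had a log2 fold change of 1.41 from 10 to 18 cycles (adjusted p = 0.00107), 1.596 from 14 to 18 cycles (adjusted p = 0.000535) and -1.24 in the 1/8 portions (adjusted p = 0.00239). Libraries of this kind do not mark the strand of the RNA. The study's methods name HTSeq with its default settings, which count by strand, but in another version than the submitters' processing notes give for the deposited counts, while the names of the deposited tables carry a tag that may mean counting without strand. How strand entered these counts is therefore not settled by the sources used here, so reads of Gnas and Gm20721 cannot be told apart and the level of Gnas is uncertain to that extent. The antisense transcript Nespas shares a further 988 bases with Gnas exons and had 0 to 35 counts.

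**Figure D2:**
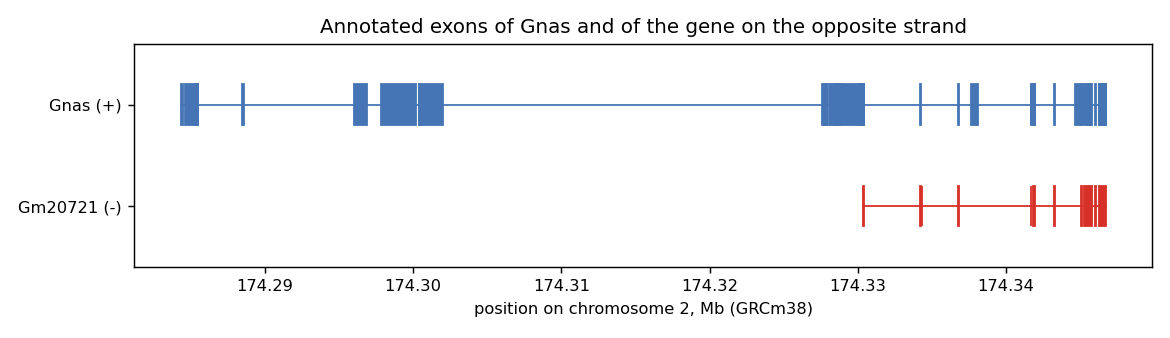
Map of chromosome 2 (GRCm38, position on the horizontal axis) with the annotated exons of Gnas on the plus strand and of Gm20721 on the minus strand drawn as boxes. Of the 1484 exon bases of Gm20721, 1469 lie in exons of Gnas.

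Adcy3 encodes an adenylyl cyclase, the enzyme type that makes cAMP (GRCm38 chr12:4133103-4213525, plus strand, ENSMUSG00000020654). With 4 to 74 counts per library, its CPM was 6.38 and 5.77 at 10 cycles, 3.48 and 3.19 at 14 cycles, 3.31 and 5.27 in whole oocytes at 18 cycles, 0.994 and 1.11 in the 1/2 portions, 5.46 and 2.97 in the 1/4 portions, and 2.63 and 2.35 in the 1/8 portions. The 10-cycle oocytes were the highest and the 1/2 portions the lowest, and the 18-cycle and 14-cycle oocytes overlapped. The log2 fold change was -0.27 from 10 to 18 cycles with a standard error of 0.53 (adjusted p = 0.708), and -2.02 in the 1/2 portions with a standard error of 0.96 (adjusted p = 0.370). Among 10 adenylyl cyclase genes Adcy3 held 1.203 to 4.99% of the TPM, whereas Adcy9 held 28.4 to 53.6%. Antisense to Adcy3, Cenpo shares 1380 of its exon bases (22.1% of the exon length of Adcy3) and had 105 to 1883 counts. Cenpo had a log2 fold change of -0.94 from 10 to 18 cycles by median ratio (adjusted p = 0.00905). Reads in the shared bases cannot be told apart, and whether those of Cenpo add to Adcy3 was not tested.

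PDE3A is the oocyte enzyme that breaks down cAMP and the target of milrinone (GRCm38 chr6:141249269-141507448, plus strand, ENSMUSG00000041741). Pde3a was at 441 and 486 CPM at 10 cycles, 415 and 420.1 at 14 cycles, 385 and 279.5 in whole oocytes at 18 cycles, 233 and 328 in the 1/2 portions, 421 and 389.7 in the 1/4 portions, and 357 and 344 in the 1/8 portions. In CPM the whole oocytes at 18 cycles lay below those at 10 and 14 cycles without overlap, and the 1/2 and 1/8 portions overlapped them. On counts scaled by median ratio the difference from 10 to 18 cycles was a log2 fold change of -0.22 with a standard error of 0.20 (adjusted p = 0.395), and that in the 1/8 portions was -0.11 (adjusted p = 0.783). Gm28523, on the opposite strand, shares 741 exon bases with Pde3a and had 3 to 89 counts. Pde3a held 20.1 to 52.3% of the TPM of 18 phosphodiesterase genes, with its lowest share, 20.1%, in oocyte 2 of the whole 18-cycle group.

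Prkaca encodes the main catalytic subunit of protein kinase A (GRCm38 chr8:83972993-83996443, plus strand, ENSMUSG00000005469). Its CPM was 31.8 and 21.5 at 10 cycles, 26.5 and 21.7 at 14 cycles, 46.4 and 36.3 in whole oocytes at 18 cycles, 17.4 and 30.6 in the 1/2 portions, 14.6 and 28.3 in the 1/4 portions, and 18.6 and 29.96 in the 1/8 portions. The whole oocytes at 18 cycles were again above the other 10 libraries, and the remaining groups overlapped one another. Normalised counts were 335 and 297 at 18, 198 and 141 at 10, and 167 and 134 at 14 cycles. Neither difference passed the threshold, at a log2 fold change of 0.90 from 10 to 18 cycles (standard error 0.27, adjusted p = 0.0260) and 1.08 from 14 to 18 cycles (standard error 0.28, adjusted p = 0.0113). The second of these passed with DESeq2, another test for counts (adjusted p = 0.00230), without the filter on low counts (adjusted p = 0.00371), with the replicate number as a block (adjusted p = 0.00770) and with ERCC size factors (adjusted p = 3.19e-06). The first passed with ERCC size factors (adjusted p = 5.61e-06). Its log2 fold change in the 1/8 portions was -1.01 with a standard error of 0.42 (adjusted p = 0.0757).

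The regulatory subunits bind cAMP and release the catalytic subunit. Prkar1a (GRCm38 chr11:109649405-109669656, plus strand, ENSMUSG00000020612) was at 93.1 and 88.1 CPM at 10 cycles, 103 and 112 at 14 cycles, 147 and 119 in whole oocytes at 18 cycles, 96.2 and 108 in the 1/2 portions, 99.8 and 122 in the 1/4 portions, and 102 in both 1/8 portions. The whole 18-cycle oocytes were above all groups but the 1/4 portions, which they overlapped. In normalised counts Prkar1a stood at 1063 and 972 at 18, 578 and 579 at 10, and 648 and 691 at 14 cycles. Prkar1a rose 1.76-fold from 10 to 18 cycles, with a log2 fold change of 0.82 and a standard error of 0.19 (adjusted p = 0.00631). From 14 to 18 cycles its log2 fold change was 0.61 (adjusted p = 0.0260), which passed with DESeq2 (adjusted p = 0.00707) and with ERCC size factors (adjusted p = 6.27e-06). The call from 10 to 18 cycles was lost without oocyte 1 (adjusted p = 0.0344) or 2 (adjusted p = 0.0388) of the 10-cycle group, without oocyte 1 (adjusted p = 0.0238) or 2 (adjusted p = 0.0223) of the 14-cycle group, or without oocyte 1 of the 18-cycle group (adjusted p = 0.0140), with log2 fold changes of 0.75 to 0.82 in these 5 refits. It was also lost with TMM, another scaling over genes, (adjusted p = 0.0104) or with a filter of at least 10 counts in every library (adjusted p = 0.0138), and over the 12 alternatives the log2 fold change ran from 0.61 to 3.08, the highest with ERCC size factors, and the adjusted p up to 0.0388.

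Prkar2a encodes a regulatory subunit of type II (GRCm38 chr9:108689314-108750436, plus strand, ENSMUSG00000032601). It was at 101.1 and 139 CPM at 10 cycles, 95.9 and 99.96 at 14 cycles, 86.5 and 131 in whole oocytes at 18 cycles, 82.2 and 127 in the 1/2 portions, 119 and 96.0 in the 1/4 portions, and 94.5 and 102 in the 1/8 portions. The whole 18-cycle oocytes lay on both sides of the 14-cycle, 1/4 and 1/8 values and overlapped the other groups. Its log2 fold change was 0.12 from 10 to 18 cycles (standard error 0.28, adjusted p = 0.758) and -0.35 in the 1/8 portions (adjusted p = 0.435). Of the TPM of 4 regulatory subunit genes, Prkar1a held 42.6 to 67.7% and Prkar2a 26.9 to 45.6%. Prkaca held 80.6 to 93.2% of its sum with Prkacb. Prkar1a and Prkar2a together had 2.55 to 7.09 times the TPM of Prkaca, with the lowest ratio in oocyte 1 of the whole 18-cycle group and the highest in library 1 of the 1/4 portions.

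Connexin 37, encoded by Gja4 (GRCm38 chr4:127311421-127314039, minus strand, ENSMUSG00000050234), forms the channels between oocyte and granulosa cells. Gja4 was at 1351 and 1459.7 CPM at 10 cycles, 1386 and 1477 at 14 cycles, 2292 and 2171 in whole oocytes at 18 cycles, 2763 and 2075 in the 1/2 portions, 1758 and 2034 in the 1/4 portions, and 1817 and 1086 in the 1/8 portions. Whole oocytes at 18 cycles and the 1/2 portions overlapped and held the highest libraries, and library 2 of the 1/8 portions was the lowest. Normalised counts were 16556 and 17729.5 at 18, 8392 and 9580.4 at 10, and 8729 and 9123 at 14 cycles. Gja4 rose 1.91-fold from 10 to 18 cycles (log2 fold change 0.93, standard error 0.19, adjusted p = 0.00345) and had a log2 fold change of 0.94 from 14 to 18 cycles (standard error 0.19, adjusted p = 0.00326). The first call was lost without oocyte 1 (adjusted p = 0.0465) or 2 (adjusted p = 0.0245) of the 10-cycle group and without oocyte 1 (adjusted p = 0.0172) or 2 (adjusted p = 0.0176) of the 14-cycle group. The log2 fold change was 0.84 to 1.03 in these 4 refits and 0.72 to 3.15 over the 12 alternatives, the highest with ERCC size factors. The second was lost without oocyte 1 of the 10-cycle group (adjusted p = 0.0108), without oocyte 1 (adjusted p = 0.0663) or 2 (adjusted p = 0.0525) of the 14-cycle group, and with at least 10 counts required in every library (adjusted p = 0.0106). There the log2 fold change was 0.91 to 0.98 in the refits without a library, and 0.71 to 3.19 over all alternatives, again highest with ERCC size factors. Against whole 18-cycle oocytes the 1/2 portions differed by 0.08 (adjusted p = 0.942) and the 1/8 portions by -0.82 (standard error 0.29, adjusted p = 0.0370), neither past the threshold. Against whole oocytes at 10 cycles the difference in the 1/2 portions was 1.06 and passed (adjusted p = 0.00382). Of all 16582 genes tested against that reference, 1655 passed as higher and 1062 as lower. Gja4 held 97.6 to 99.4% of the TPM of 18 connexin genes in every library.

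**Figure D3:**
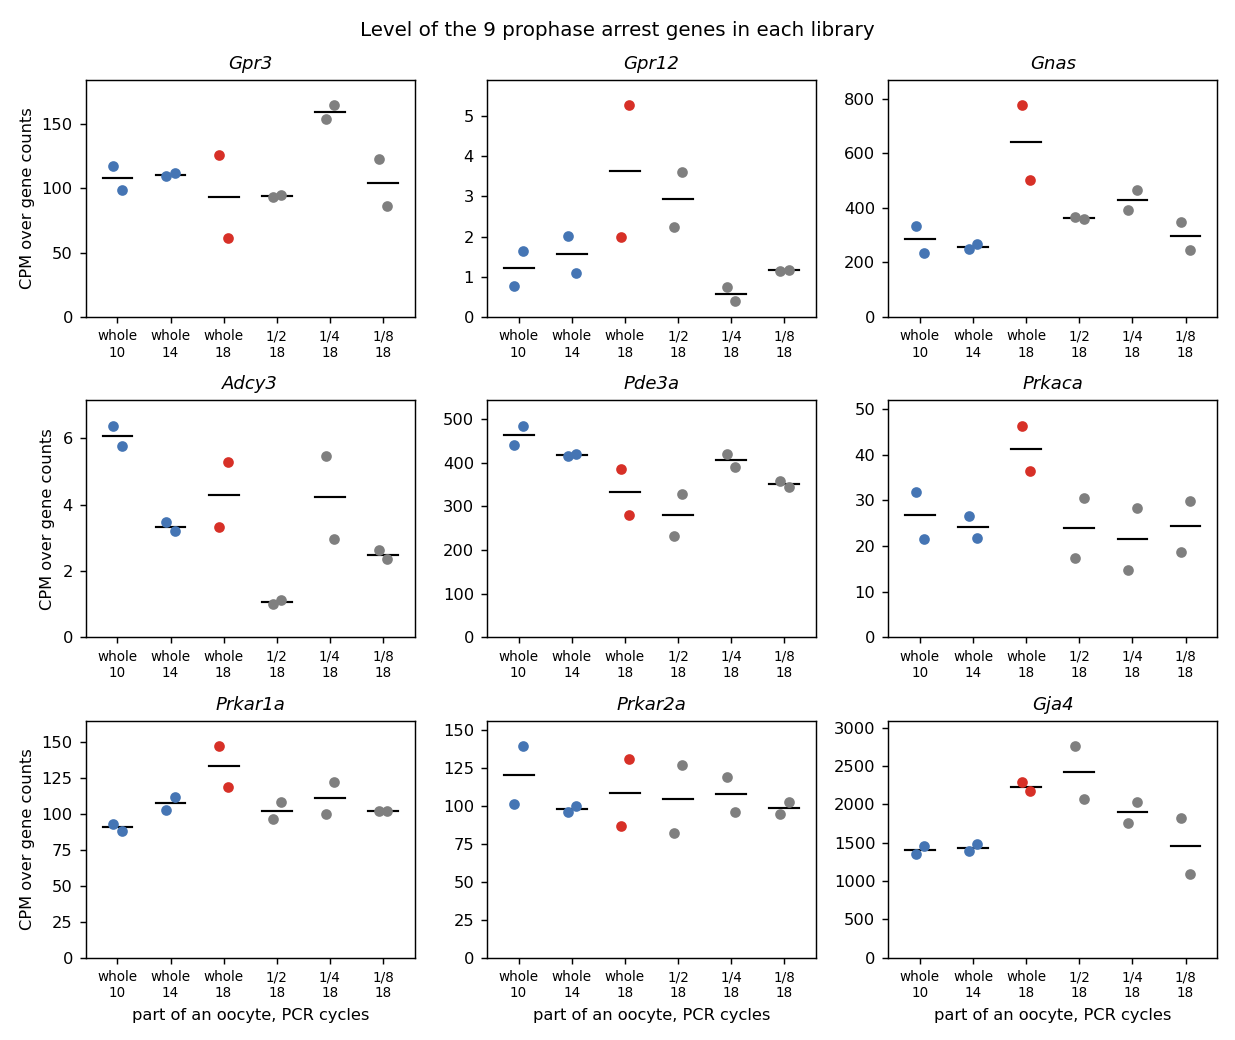
Level of each of the 9 genes in every library, in CPM on the vertical axis, by group on the horizontal axis. Each group has 2 points, 1 per library, and a line at their mean; the whole oocytes at 18 cycles are the highest libraries for Gnas (777 and 503) and Prkaca (46.4 and 36.3), and the 1/4 portions for Gpr3 (154 and 165).

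The oocytes amplified for 14 and for 10 cycles were compared first over the 9 genes together. In edgeR, 0 of 9 passed the threshold, beside 0% of all 17532 genes tested, 0 of 9 had an unadjusted p under 0.05, and DESeq2 called 0. Over all genes 2.93% had such a p and DESeq2 called 0.0114%. The groups did not overlap for 4 of the 9, of which 1 was higher and 3 were lower at 14 cycles, beside 36.4% of all genes without overlap in either direction. Log2 fold changes ran from -0.89 to 0.34 with a median of -0.17, beside 0.01 over all genes.

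From 10 to 18 cycles, 3 of 9 rose, namely Gnas, Gja4 and Prkar1a, beside 12.3% of all genes tested, and 0 of 9 fell, beside 10.8%. An unadjusted p under 0.05 was reached by 4, all higher, beside 21.6% of all genes higher at such a p. DESeq2 called 3, all higher, beside 20.3% called higher of the 13453 genes to which it gave an adjusted p. The groups did not overlap for 5 of the 9, all higher at 18 cycles, beside 28.1% of all genes higher and 39.9% lower without overlap, and the median log2 fold change was 0.82, beside -0.29 over all genes. The count of members called was 1 without oocyte 1 of the 10-cycle group, 0 without its oocyte 2, 1 without either oocyte of the 14-cycle group and 2 without oocyte 1 of the 18-cycle group. With 1 of the 6 libraries left out, 1616 to 4007 genes of all those tested passed, against 2155 higher and 1898 lower with all libraries.

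From 14 to 18 cycles, in a comparison that shares the whole 18-cycle oocytes with the one before, 2 of 9 rose, Gnas and Gja4, beside 12.5% of all genes tested, and 0 of 9 fell, beside 10.7%. There were 4 with an unadjusted p under 0.05, all higher, beside 22% of all genes, and 4 called higher by DESeq2, beside 20.5%. The groups did not overlap for 7 of the 9, all higher at 18 cycles, beside 29.4% of all genes higher and 42.5% lower without overlap. The median was 0.62, beside -0.29 over all genes. Only Gnas was called without oocyte 1 of the 10-cycle group or without oocyte 1 or 2 of the 14-cycle group. Over all genes, too, fewer passed in each of these refits than with all libraries.

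The differences at 18 cycles depended on the scale. With size factors from the ERCC molecules in place of median ratios over genes, the median of all genes moved from -0.29 to 1.96 in 18 against 10 cycles and to 1.97 in 18 against 14 cycles, and with TMM it moved to -0.38 and -0.37. The split of all calls from 10 to 18 cycles was then 8348 higher and 0 lower, against 2155 higher and 1898 lower by median ratio. From 14 to 18 cycles it was 8398 higher and 2 lower, against 2199 and 1873. On the ERCC scale 8 of the 9 genes were higher at 18 than at 10 cycles, beside 47.6% of all genes, and 9 were higher at 18 than at 14, beside 47.9%, with medians of 3.08 and 2.89 beside 1.96 and 1.97 over all genes. Signs on this scale were turned for Adcy3 (1.92, from -0.27) and Pde3a (2.05, from -0.22) in 18 against 10 cycles, and for Pde3a (2.27, from -0.04) in 18 against 14 cycles, while Gnas, Gja4 and Prkar1a kept theirs.

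Portions were compared with whole oocytes at 18 cycles, the same 2 libraries in each comparison, first by median ratio. In the 1/2 portions 0 of 9 passed in edgeR, beside 0.122% of 14788 genes tested, with 2 lower at an unadjusted p under 0.05, beside 6.61% of all genes. DESeq2 called 0 of the 7 members to which it gave an adjusted p, beside 2.25% of all such genes, and 4 of 9 members were lower and 0 higher without overlap, beside 20.5 and 21.0% of all genes. The median was -0.33, beside -0.01 over all genes. In the 1/4 portions 0 of 9 passed in edgeR, beside 0.460%, with 3 lower at an unadjusted p under 0.05, beside 8.47%. DESeq2 called 0 of 7, beside 3.16%, and 1 member was higher and 5 were lower without overlap, beside 26.5 and 22.7% of all genes. Here the median was -0.38, beside 0.05. In the 1/8 portions 1 of 9 fell, Gnas, beside 8.69% of all genes, and 0 rose, beside 7.06%. Of the 9, 6 were lower and 0 higher without overlap, beside 30.9 and 32.0% of all genes. An unadjusted p under 0.05 was found for 3 members, all lower, beside 20.9%, DESeq2 called 1 lower of the 8 to which it gave an adjusted p, beside 13.3%, and the median was -0.82, beside 0.03. The call of Gnas was lost without oocyte 1 of the whole 18-cycle group or without library 2 of the 1/8 portions. Over all genes, too, fewer passed in these refits than with all libraries. All 9 log2 fold changes in the 1/8 portions were below 0, from -1.81 to -0.02.

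ERCC size factors scale each library by the added standard instead of by its genes. On this scale 8 of 9 fell in the 1/2 portions, beside 52.0% of all genes tested. In the 1/4 portions 9 of 9 fell, beside 69.7%, and in the 1/8 portions 9 of 9, beside 87.5%. Gpr12 was the exception at 1/2, with a log2 fold change of -2.22 (adjusted p = 0.0642). Median log2 fold changes were -2.34, -3.12 and -5.76, beside -1.997, -2.69 and -4.92 over all genes. All gene counts per ERCC count were 25.8, 12.8 and 3.16% of those in whole 18-cycle oocytes. These amounts lay below the nominal 1/2, 1/4 and 1/8, and the cause was not tested. All 9 lay below the median of all genes in the 1/8 portions, where the highest was Gpr3 at -5.08, whereas Gja4 at -1.86 in the 1/2 portions, and Gpr3 at -2.205 and Pde3a at -2.61 in the 1/4 portions, lay above it. DESeq2 called 8, 9 and 9 lower, beside 58.5, 66.3 and 85.2% of the genes to which it gave an adjusted p. All 9 were lower without overlap in each portion group, as were 78.8, 85.8 and 89.2% of all genes. In the 1/2 portions the calls of Gpr3 and Gja4 were lost without oocyte 1 of the whole 18-cycle group, at log2 fold changes of -0.92 and -1.35. That of Adcy3 was lost without library 1 of the 1/2 portions, at -4.17. Without library 2 those of Gpr3 (-1.93), Adcy3 (-3.84), Prkar2a (-2.15) and Gja4 (-1.51) were lost. Over all genes, too, fewer passed in each of these refits than with all libraries. In the 1/4 portions Adcy3 was lost without oocyte 1 (adjusted p = 0.0316) or 2 (adjusted p = 0.0206) of the whole 18-cycle group or without library 1 (adjusted p = 0.0275) or 2 (adjusted p = 0.111) of the 1/4 portions, Gpr3 without oocyte 1 of the whole group (adjusted p = 0.0652), and Gpr12 without library 2 of the 1/4 portions (adjusted p = 0.0108). The call of Adcy3 there was also lost without the filter on low counts (adjusted p = 0.0112). Against whole oocytes at 10 cycles the counts of members called were 0, 0 and 8, beside 3.55, 8.97 and 79.3% of all genes lower.

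**Figure D4:**
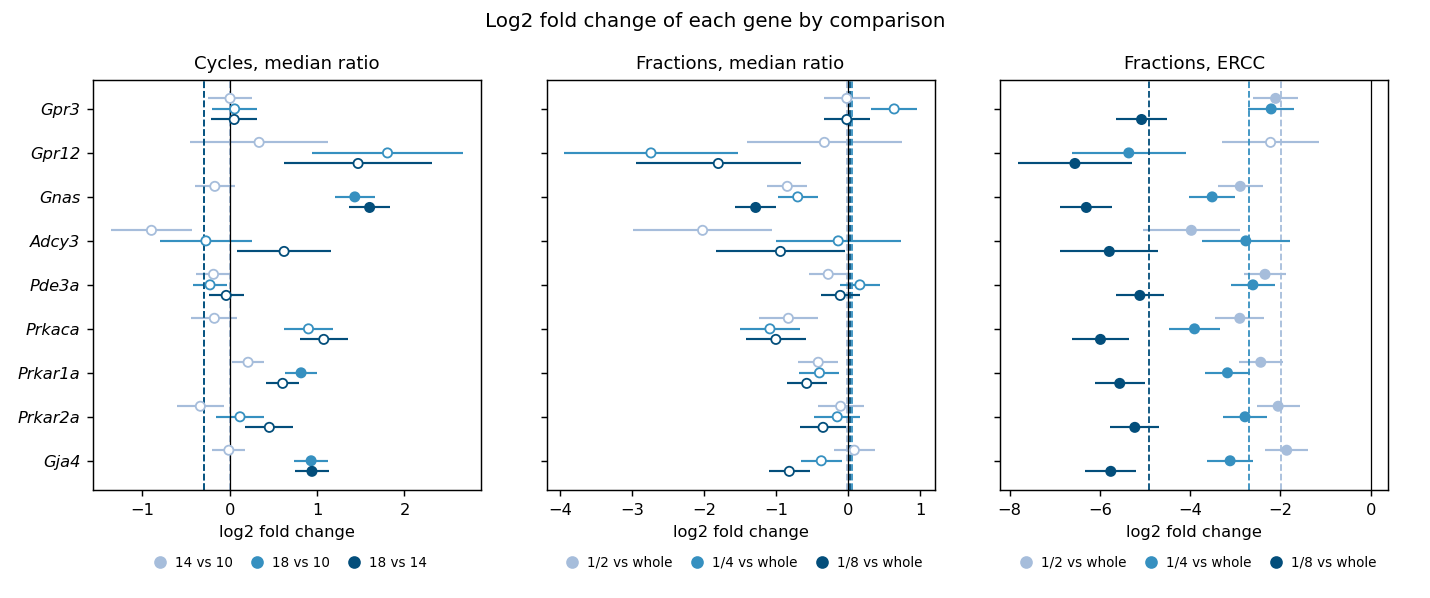
Log2 fold changes of the 9 genes with standard errors, for 18, 14 and 10 cycles by median ratio, for portions against whole 18-cycle oocytes by median ratio, and for the same portions by ERCC size factors. Filled points passed the threshold, dashed lines are the median of all genes tested; with ERCC size factors these medians are -1.997, -2.69 and -4.92, against -0.01, 0.05 and 0.03 by median ratio.

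Amounts were also read directly as counts per 1000 ERCC counts. All genes together had 323 and 359.98 counts per ERCC count at 10 cycles, 347 and 354 at 14 cycles, and 1873 and 1158 in whole oocytes at 18 cycles, where 1611 and 1474 ERCC counts were left. The portions had 439 and 344 at 1/2, 214 and 174 at 1/4, and 49.3 and 46.5 at 1/8. The whole oocytes at 18 cycles therefore stood above all other libraries, the 1/2 portions near the whole oocytes at 10 and 14 cycles, and the smaller portions below them. The cause of the high value in whole oocytes at 18 cycles was not tested.

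On this scale Gpr3 had 38.0 and 35.4 counts per 1000 ERCC counts at 10 cycles, 37.9 and 39.6 at 14 cycles, 236 and 70.6 in whole oocytes at 18 cycles, 41.0 and 32.6 in the 1/2 portions, 32.9 and 28.6 in the 1/4 portions, and 6.04 and 4.02 in the 1/8 portions. Gnas had 108 and 84.5 at 10 cycles, 86.1 and 94.0 at 14 cycles, 1456 and 582 in whole oocytes at 18 cycles, 161 and 123 at 1/2, 84.4 and 81.0 at 1/4, and 17.2 and 11.5 at 1/8. For Gja4 the values were 437 and 525 at 10 cycles, 481 and 522 at 14 cycles, 4292 and 2513 in whole oocytes at 18 cycles, 1213 and 713 at 1/2, 377 and 353 at 1/4, and 89.5 and 50.5 at 1/8. In all 3 genes the 1/8 portions were the lowest group and the whole 18-cycle oocytes the highest, and the 18-cycle oocytes of Gpr3 differed from each other more than the 10-cycle and 14-cycle oocytes did. Pde3a had 143 and 175 counts per 1000 ERCC counts at 10 cycles, 144 and 149 at 14 cycles, 721 and 324 in whole oocytes at 18 cycles, 102 and 113 at 1/2, 90.3 and 67.7 at 1/4, and 17.6 and 16.0 at 1/8. It was the only 1 of these 4 genes whose 1/2 portions lay below the whole oocytes at 10 cycles without overlap.

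Relative to the mean of the whole oocytes at 10 cycles, the amount per ERCC count over all genes was 102% at 14 cycles and 443% at 18 cycles, and 115, 56.8 and 14.0% in the 1/2, 1/4 and 1/8 portions. At 18 cycles Gpr12, with few counts, stood highest of the 9 at 1172%, followed by Gnas at 1060.4%, Prkaca at 715%, Gja4 at 707%, Prkar1a at 668%, Gpr3 at 418%, Prkar2a at 378%, Pde3a at 329% and Adcy3, also with few counts, at 297%. These percentages at 18 cycles are means over 2 oocytes that lay far apart on this scale, at 236 and 70.6 counts per 1000 ERCC counts for Gpr3 and 1456 and 582 for Gnas. Gja4 stood at 200.1, 75.8 and 14.5% in the 1/2, 1/4 and 1/8 portions. Gnas stood at 148, 86.1 and 14.9% there, Gpr3 at 100.2, 83.8 and 13.7%, and Pde3a at 67.8, 49.8 and 10.6%. The 1/8 portions of these 4 genes thus lay between 10.6 and 14.9%, beside 14.0% for all genes, and their 1/2 portions between 67.8 and 200.1%, beside 115%. Over all 9 genes the 1/8 portions ran from 5.77% (Adcy3) to 15.8% (Prkar1a). The 1/2 portions ran from 19.8% (Adcy3) to 265% (Gpr12), both of them genes with few counts.

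The ratio of Gnas to Gpr3, transducer to receptor, needs no scale between libraries. In TPM it was 0.692 and 0.583 at 10 cycles, 0.556 and 0.580 at 14 cycles, 1.504 and 2.02 in whole oocytes at 18 cycles, 0.959 and 0.922 at 1/2, 0.626 and 0.692 at 1/4, and 0.696 and 0.698 at 1/8. The whole oocytes at 18 cycles were the highest, the 1/2 portions came next, and the other groups lay between 0.556 and 0.698. The size of this ratio depends on the lengths used, by 1 common factor in all libraries, and with the longest transcripts the mean TPM of Gnas was above that of Gpr3 (234 and 109). Gja4 to Gpr3 was 29.4 and 57.8 in whole oocytes at 18 cycles and 48.0 and 35.5 at 1/2, and 18.6 to 24.1 in the other 8 libraries. Pde3a to Gpr3 was 0.806 and 1.06 at 10 cycles, 0.816 and 0.805 at 14 cycles, 0.654 and 0.985 in whole oocytes at 18 cycles, 0.535 and 0.744 at 1/2, 0.589 and 0.508 at 1/4, and 0.626 and 0.856 at 1/8. The 1/4 portions lay below every group but the 1/2 portions without overlap, the 1/2 portions lay below the whole oocytes at 10 and 14 cycles without overlap, and the other groups overlapped.

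The rest of the pathway was read from 7 lists with 97 genes, of which 77 were tested between cycle numbers. By median ratio 12 were higher (15.6%, beside 12.3% of all genes) and 10 lower (12.99%, beside 10.8%) from 10 to 18 cycles, and 0 were called from 10 to 14 cycles by edgeR, beside 0% of all genes. The same shares of all genes stand beside each list's counts below, and 47.6% higher on the ERCC scale. With 1 library left out the calls were fewest without oocyte 2 of the 10-cycle group, at 6 higher and 1 lower, and they were 7 and 3 without its oocyte 1. Without oocyte 1 or 2 of the 14-cycle group they were 8 higher and 6 lower, and without oocyte 1 or 2 of the 18-cycle group 8 and 11 higher with 7 lower each. Over all genes, too, fewer passed in each of these refits than with all libraries, and fewest without oocyte 2 of the 10-cycle group. Calls of Gna11, Gng5, Pde3b, Pkig, Ccnb1 and Pkmyt1 were kept in each of these 6 refits. Those of Rgs2 and Wee1 were lost without oocyte 2 of the 10-cycle group only, and that of Cdc25a without its oocyte 1 only. Each of the remaining 13 calls was lost without oocyte 2 of the 10-cycle group and in at least 1 further refit. On the ERCC scale no gene of the lists was called lower, and of the genes called lower by median ratio, Rgs2, Pde8b, Prkar2b, Ccnb1, Cdc25b, Cdc25c and Wee2 had a log2 fold change above 0.

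Among receptors and G proteins (15 of 16 tested, median log2 fold change 0.14 beside -0.29 over all genes), 4 rose and 1 fell from 10 to 18 cycles, and with ERCC size factors 12 rose and 0 fell. Gna11, an alpha subunit of the Gq class, rose by 2.32 on the log2 scale (adjusted p = 0.000177) and Gng5, a gamma subunit, by 2.06 (adjusted p = 0.000371). Rgs2, which shortens G protein signals and was the most abundant gene of the list at a mean of 518 TPM, fell by 1.40 (adjusted p = 0.00131), a direction that turned with ERCC size factors. The inhibitory alpha subunits Gnai2 and Gnai3 had means of 215 and 107 TPM, and Gnai2 rose by 0.83 (adjusted p = 0.00612), a call kept in 1 of 6 refits. Adenylyl cyclases (6 of 9 tested, median -0.84) had 1 that rose, Adcy8 by 1.91 (adjusted p = 0.00642), kept in 3 of 6 refits, and with ERCC size factors 3 rose. Adcy9 and Adcy5 were the most abundant at 19.0 and 18.0 TPM, and Adcy4 and Adcy7 were at 0 in all libraries. Adcy10, the soluble cyclase, had 30 and 40 counts at 10 cycles and 0 in both whole oocytes at 18 cycles (adjusted p = 0.0103).

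Phosphodiesterases had 15 of 17 tested, and their median was -1.69, or -1.36 with genes at 0 in a group set to the bound that 3 counts per library allow. Pde3b, the second PDE3 gene and the most abundant of the list at 77.9 TPM, rose by 2.59 on the log2 scale (adjusted p = 0.000233). There were 3 that fell by median ratio, Pde1a, Pde4b and Pde8b, while with ERCC size factors 0 fell and 5 rose. Pde1a had 67 and 21 counts at 10 cycles and 0 in both whole oocytes at 18 cycles (adjusted p = 0.00807), and Pde4b had 53 and 40 against 1 and 0 (adjusted p = 0.00660). Neither call was kept in any of the 6 refits with a library left out. Protein kinase A subunits, inhibitors and anchors (14 of 15 tested, median -0.21) had 1 that rose, the kinase inhibitor gene Pkig by 2.03 (adjusted p = 0.000354), and 1 that fell, Prkar2b by 1.66 (adjusted p = 0.00921), kept in 1 of 6 refits, and with ERCC size factors 10 rose and 0 fell. The anchor genes Akap1 and Akap12 were the most abundant at 223 and 114 TPM.

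The CDK1 switch that protein kinase A holds back had 9 of 9 tested, with 4 higher and 4 lower and a median of -0.54, against 5 higher and 0 lower with ERCC size factors. Pkmyt1 and Wee1, kinases that inhibit CDK1, rose by 1.71 (adjusted p = 0.000157) and 1.85 (adjusted p = 0.000490) on the log2 scale, and the phosphatase gene Cdc25a rose by 1.99 (adjusted p = 0.000793). Ccnb1, which encodes the CDK1 partner cyclin B1, fell by 2.05 (adjusted p = 0.000198), and Wee2, the oocyte form of the inhibiting kinase with the highest mean of the list at 332 TPM, fell by 1.43 (adjusted p = 0.00184), both with signs that turned on the ERCC scale. Gap junction and pannexin genes (13 of 20 tested, median -0.27, or -0.17 at the bound) had 1 that rose, the channel gene Panx1 by 0.88 (adjusted p = 0.00550), kept in 1 of 6 refits, and 4 that rose with ERCC size factors. Panx1 led that list at 46.0 TPM, and Gjc3 and Gjd3 were among the genes at 0 in all 12 libraries. On the follicle side of the signal 5 of 11 genes were tested, with a median of -2.61, or -2.17 at the bound. Egfr, the receptor for EGF-like signals of ovulation, fell by 2.17 (adjusted p = 0.00140), kept in 4 of 6 refits, and had the highest mean of this list at 19.6 TPM, while Ereg and Btc, which encode 2 of its ligands, were at 0. With ERCC size factors 0 genes of that list were called by edgeR.

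In the comparison of 18 with 14 cycles, 11 genes of the lists were higher (14.3%, beside 12.5% of all genes) and 9 lower (11.7%, beside 10.7%), with 4 and 1 among receptors and G proteins, 1 and 1 among cyclases, 1 and 4 among phosphodiesterases, 1 and 0 among protein kinase A genes, 3 and 3 in the CDK1 switch, 1 and 0 among gap junction genes and 0 and 0 on the follicle side. The count was lowest without oocyte 1 of the 14-cycle group, at 6 higher and 1 lower, and it was 7 and 2 without its oocyte 2, 9 and 3 without oocyte 1 and 9 and 4 without oocyte 2 of the 10-cycle group, and 11 and 6 without oocyte 1 and 12 and 5 without oocyte 2 of the 18-cycle group. Over all genes, too, fewer passed in each of these refits than with all libraries, and fewest without oocyte 2 of the 14-cycle group. The calls of the phosphodiesterases Pde1a, Pde1c, Pde4b and Pde10a and of the cyclase Adcy10, all lower, were kept in 0 of the 6 refits. Those of Adcy9, Ccnb2 and Panx1, all higher, were kept in 1 of 6. Pde3b had a log2 fold change of 2.63 there, and with ERCC size factors Rgs2, Pde10a, Pde1c, Cdc25b and Wee2, called lower by median ratio, had signs above 0.

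Between the 1/8 portions and whole oocytes at 18 cycles, 69 genes of the lists were tested by median ratio and 3 were higher (4.35%, beside 7.06% of all genes) and 6 lower (8.70%, beside 8.69%). Without 1 library the counts were 2 to 4 higher and 5 lower. Over all genes fewer passed in each of these refits than with all libraries. Among receptors and G proteins Rgs2 rose by 1.93 on the log2 scale (adjusted p = 0.000102) and Gna11 fell by 2.11 (adjusted p = 0.000181). Gnb2 also fell, by 1.31 (adjusted p = 0.00898), a call kept in 0 of 8 refits. In the CDK1 switch Ccnb1 rose by 2.02 (adjusted p = 0.000110), Wee2 rose by 1.27 (adjusted p = 0.00313), Cdc25a fell by 2.19 (adjusted p = 0.000123) and Pkmyt1 fell by 1.64 (adjusted p = 0.000795). Wee2 was lost without oocyte 1 of the whole group or library 2 of the 1/8 portions, and Pkmyt1 without the latter. Pde3b fell by 1.89 (adjusted p = 0.000290) and Pkig fell by 1.81 (adjusted p = 0.000535), while cyclases, gap junction genes and the follicle side had 0 called by edgeR. In the 1/2 and 1/4 portions 0 genes of the lists were called by median ratio in edgeR, beside 0.122 and 0.460% of all genes. On the ERCC scale 44, 48 and 58 of 69 were lower in the 1/2, 1/4 and 1/8 portions. These are 63.8, 69.6 and 84.1%, beside 52.0, 69.7 and 87.5% of all genes. The 3 genes higher by median ratio in the 1/8 portions were called lower on that scale, Rgs2 at -2.97, Ccnb1 at -2.87 and Wee2 at -3.61.

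Markers of cell types were read in the same fits. From 10 to 18 cycles 9 of 11 oocyte markers fell by median ratio (median -1.38), beside 10.8% of all genes, of which all but Dppa3 had a sign above 0 with ERCC size factors, and from 14 to 18 cycles 10 of 11 fell, beside 10.7%. In the 1/8 portions 7 of 11 rose against whole oocytes at 18 cycles (median 1.11), beside 7.06% of all genes, a count that was 4 without oocyte 1 and 3 without oocyte 2 of the whole group, and 3 without library 1 of the 1/8 portions. That rise was by median ratio. With ERCC size factors all 11 oocyte markers were called lower in the 1/8 portions, from -5.51 (Figla) to -2.70 (Dppa3), beside 87.5% of all genes. Of 12 granulosa and cumulus markers tested, Cyp19a1 (-1.92) and Kitl (-1.99) fell from 10 to 18 cycles by median ratio, with signs that turned with ERCC size factors. Kitl was called in 0 of the 6 refits with a library left out, and Cyp19a1 was lost without oocyte 2 of the 10-cycle group or oocyte 1 of the 18-cycle group. From 14 to 18 cycles 3 of 12 fell, Cyp19a1, Kitl and Nr5a2, and of these Kitl and Nr5a2 turned sign with ERCC size factors and were called in 0 of 6 refits. In the 1/8 portions 1 of 8 granulosa markers rose by median ratio, Cyp19a1 (2.34), lost without oocyte 1 of the whole group. By median ratio 0 theca or blood markers were called by edgeR in either comparison. With ERCC size factors all 8 granulosa markers were called lower in the 1/8 portions, Cyp19a1 at -2.58, beside the same 87.5% of all genes. The theca marker Star (-4.85) and the blood marker Cd68 (-5.11) were also called lower there. The members called from 10 to 18 cycles, Gnas, Gja4 and Prkar1a, thus stood higher where most oocyte markers stood lower, and the part of that shift in their calls was not tested.

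Oligo(dT) beads select tailed RNA, so the ends of the annotated transcripts were searched for the signals that direct tail addition. In the last 150 bases of the longest GENCODE M21 transcript, read on its own strand, AATAAA or ATTAAA occurred in 8 of the 9 genes, and in 10863 of 14180 genes (76.6%) searched the same way. Pde3a had neither motif in that window. For Gnas the transcript searched ends at position 174302018, upstream of the annotated end of the gene at 174346744, so its match is not at the end of the gene. The cytoplasmic elements TTTTAT or TTTTAAT occurred in Adcy3 and Pde3a, and in 22.8% of all genes. The windows of 30 bases around the signal are shown for both regulatory subunits and the connexin, written 5′ to 3′ with the signal in capitals. In GRCm38 they lie at chr11:109669605-109669634 on the plus strand for Prkar1a, chr9:108750390-108750419 on the plus strand for Prkar2a, and chr4:127311435-127311464 on the minus strand for Gja4, all in the last exon.
Prkar1a: ctgtctcaatggtaggtcacagAATAAAaa
Prkar2a: gggcccggcttcactcttgactAATAAAgg
Gja4: gttccactgtttatgatcctcaAATAAAca
The signal starts 30, 25 and 22 bases before the annotated end of Prkar1a, Prkar2a and Gja4. All 3 carry AATAAA, and a match describes the annotated sequence, not the end used in these oocytes.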

How the data were processed

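The deposited counts per gene were made by the authors, and the submitters' processing notes name cutadapt 2.5, STAR 2.7.2a, SAMtools 1.9, HTSeq 0.9.1, FastQC 0.11.8, R 3.5.1 and DESeq2 1.24.0 with build mm10. Rows without a gene were left out of totals and tests. In each library no_feature held 6.90 to 10.8% of all counts and ambiguous 2.64 to 4.53%. CPM was computed over gene counts, and TPM with the length of the union of exons in GENCODE M21 (GRCm38). Tests used edgeR 4.0.16 (quasi-likelihood) in R 4.3.3 with Benjamini-Hochberg adjustment over all genes that reached 5 counts in 2 or more of the libraries fitted, and a threshold of 0.01. The 6 whole oocytes made 1 fit with 3 groups, and the 8 libraries of 18 cycles 1 fit with 4 groups, scaled by median ratio over genes or over ERCC molecules. Alternatives were DESeq2 1.42.0, TMM, a filter that was dropped or raised to 10 counts throughout, ERCC size factors or total ERCC counts, the replicate number as a block, whole oocytes at 10 cycles as reference, each library left out, and transcript length. All 9 members were named, and of each pathway list counts, up to 4 genes with the highest mean TPM and the largest called changes. Further genes of the lists, such as Gng5, Pkmyt1 and Adcy10, were named outside this rule. A floor of 3 counts per library was used for genes at 0 in a group. Members and lists were chosen with earlier results of these data known. Scripts were tested on simulated data. Intervals and tests on counts cover counting error and the spread between libraries only.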

Additional observations from a re-analysis of the deposited data

How the results depend on the processing

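Each of 9 log2 fold changes per comparison, and each count of members called, was recomputed under the alternatives run for that comparison. TMM was run for median ratio scaling only, total ERCC counts for ERCC scaling only, and the reference at 10 cycles for portions only. Gpr12 and Adcy3 were not tested where at least 10 counts were required in every library. Of 120 recomputed counts 102 stayed within 1.5 times the value with all libraries and 18 moved. Of 1062 recomputed log2 fold changes 936 kept their direction and side of the threshold, 15 came to pass it, 41 no longer passed it and 70 turned sign, and the cause was not tested. With DESeq2 the count of members called in 18 against 14 cycles was 4. With at least 10 counts in every library it was 1, beside 3973 of 9073 genes tested, 1962 higher and 2011 lower. Log2 fold changes with that filter were 0.0135 for Gja4 in 14 against 10 cycles, and -0.15 for Gpr3 and -0.10 for Prkar2a in 18 against 10. For Gpr3 they were -0.18 in 18 against 14 cycles and 0.0353 in the 1/8 portions. With TMM Gpr3 was at -0.00534, -0.0294 and -0.0241 in 14 against 10, 18 against 10 and 18 against 14 cycles, and at 0.0533 in the 1/8 portions. With ERCC size factors Gpr3 was at -0.00338 in 14 against 10 cycles, Adcy3 at 1.92 and Pde3a at 2.05 in 18 against 10 with 8 members called, and Pde3a at 2.27 in 18 against 14 with 9 called. All genes called from 10 to 18 cycles then numbered 8348, and from 14 to 18 cycles 8400, against 2155 and 2199 higher and 1898 and 1873 lower by median ratio. With the replicate block Gpr3 in the 1/2 portions was at 0.0286. The labels do not say whether the replicate numbers pair the portions by oocyte. The correlation of deviations between libraries of the same number was -0.18, 0.21 and -0.12 between the cycle groups. It lay between -0.03 and 0.04 between the groups of 18 cycles. With 2 libraries in each group these values do not settle the pairing. The block gave 3 members called in 18 against 10 and in 18 against 14 cycles, and 4379 genes of all in each.

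With whole oocytes at 10 cycles as the reference and median ratio scaling, log2 fold changes in the 1/2 portions were 0.0766 for Gpr3, 1.52 for Gpr12, 0.63 for Gnas, 0.11 for Prkaca, 0.44 for Prkar1a and 0.0560 for Prkar2a. There 1 member was called, Gja4 at 1.06, beside 1655 of 16582 genes called higher. In the 1/4 portions log2 fold changes were 0.75 for Gnas, -0.0399 for Pde3a, 0.44 for Prkar1a and 0.58 for Gja4. In the 1/8 portions they were 0.0318 for Gpr3, 0.14 for Gnas, 0.23 for Prkar1a and 0.11 for Gja4, with 0 called by edgeR. With ERCC size factors the 1/2 portions gave 0.23 for Gpr3, 1.62 for Gpr12, 0.79 for Gnas, 0.22 for Prkaca, 0.58 for Prkar1a, 0.15 for Prkar2a and 1.23 for Gja4, with 0 called, and the 1/4 portions 0.17 for Gpr3, 0.21 for Gnas and 0.0221 for Gja4, with 0 called.

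Leaving out 1 library in turn, where a group of 1 library is assumed to vary like the other groups, gave these ranges. In 14 against 10 cycles Gpr3 ran from -0.0793 to 0.0899, Gpr12 from -0.20 to 1.00, Gnas from -0.36 to 0.0519, Prkaca from -0.39 to 0.0831 and Gja4 from -0.11 to 0.0905. In 18 against 10 cycles Gpr3 ran from -0.46 to 0.45, Adcy3 from -0.65 to 0.16, Prkar2a from -0.26 to 0.48 and the members called from 0 to 3. In 18 against 14 cycles Gpr3 ran from -0.46 to 0.45, Pde3a from -0.18 to 0.14 and the members called from 1 to 2. By median ratio in the 1/2 portions Gpr3 ran from -0.40 to 0.51, Gpr12 from -0.97 to 0.57, Prkar2a from -0.45 to 0.29 and Gja4 from -0.18 to 0.31. In the 1/4 portions Adcy3 ran from -0.71 to 0.27, Pde3a from -0.000749 to 0.32 and Prkar2a from -0.49 to 0.24. In the 1/8 portions Gpr3 ran from -0.41 to 0.50, Pde3a from -0.28 to 0.0395, Prkar2a from -0.70 to 0.0335 and the members called from 0 to 1. With ERCC size factors the members called in the 1/2 portions ran from 4 to 8. Depth limits the values of Gpr12 and Adcy3, which had the lowest counts of the 9 genes, at 2 to 25 and 4 to 74 per library.

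Counts over all genes tested moved more. From 10 to 14 cycles 0 genes passed in edgeR, 2 with DESeq2 and 9 without a filter on low counts. By median ratio 18 genes passed in the 1/2 portions and 68 in the 1/4 portions, against 152 and 241 with DESeq2, 218 and 205 without a filter, 73 and 126 with the replicate block, 1 in the 1/2 portions with TMM, and 2717 and 1680 with whole oocytes at 10 cycles as the reference, which gave 0 in the 1/8 portions against 1285 lower and 1044 higher. With 1 library left out those in the 1/2 portions ran from 0 to 31 and those in the 1/4 portions from 0 to 104, and those in the 1/8 portions were 1098 without oocyte 1 of the whole group and 1307 without library 2 of the 1/8 portions. From 14 to 18 cycles 1851 or 1815 passed without oocyte 1 or 2 of the 14-cycle group. With ERCC size factors 588 and 1488 were lower in the 1/2 and 1/4 portions against 10-cycle oocytes, in place of 7697 and 10301. There 3081 were lower in the 1/2 portions without oocyte 1 of the whole group and 1930 without library 2 of the 1/2 portions, 6703 in the 1/4 portions without library 2 of these, and 8329 in place of 12937 in the 1/8 portions where only 8330 genes had at least 10 counts in every library.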

Other observations

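The profile of each gene over the 12 libraries was compared with those of 8859 genes with a mean of at least 10 CPM, by the root mean square difference of log2(CPM + 1) centred on each gene's own mean. The nearest were Vars2 (0.174) and Smarcc1 (0.184) for Gpr3, Ssbp3 (0.267) and Bmp6 (0.315) for Gpr12, Mtmr14 (0.157) and Hpcal1 (0.169) for Gnas after its antisense partner Gm20721 (0.037), and Ttbk2 (0.315) for Adcy3. For Pde3a they were Ippk (0.111) and Rad54l (0.118), for Prkaca Zdhhc5 (0.218) and Gsk3a (0.235), and for Prkar1a Zfp334 (0.120) and Cnbp (0.122). For Prkar2a they were Dip2b (0.113) and Farp1 (0.144), and for Gja4 Diras2 (0.119) and Arrdc1 (0.130). The median difference over all genes was 0.547 to 0.813, depending on the member.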
